A study of Neurospora crassa OR74A with 26 samples.

Results

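In wild-type Neurospora crassa, 75 of 9733 genes (0.771%) were chosen because they stood higher after 4 h without a carbon source than after 4 h on cellulose or on sucrose. FPKM, fragments mapped to a transcript scaled by its length and by the library's size, were summed to genes and averaged per group, and 1 was added to each mean. A gene was taken where its mean without carbon was at least 20 FPKM and at least 3 times the mean in both other 4 h groups. Its lowest no-carbon library also had to lie above the highest library of both. The 4 h wild-type values thus chose the genes, and they are given here as a description, with no test. No library of the deletion strains, and none taken before 4 h, entered the choice.

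The organism is labelled as strain OR74A throughout. Cultures were started from conidia, grown for 16 h in sucrose, washed, and moved to fresh medium without carbon, to Avicel, which is microcrystalline cellulose, or to sucrose. Wild type was sampled without carbon at 1 h (1 library) and 4 h (3 libraries), on Avicel at 30 min, 1 h, 2 h and 4 h (1, 3, 1 and 3 libraries) and on sucrose at 1 h and 4 h (3 libraries each). Strains in which a hygromycin resistance cassette replaces clr-1 (NCU07705) or clr-2 (NCU08042), each encoding a transcription factor needed for cellulase expression, were sampled after 1 h and 4 h in either Avicel or sucrose, with 1 library in each of these 8 groups and none without carbon. The wild-type triplicates are described as biological. Each deletion is represented by 1 strain.

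Neurospora is a filamentous fungus that takes up sugars released from plant cell walls. When carbon runs out, hyphae draw on their own stores and on gluconeogenesis, which makes sugar phosphates from smaller carbon compounds, and starvation and exposure to air are known triggers of conidiation, the formation of asexual spores. Conidia carry a water-repellent coat of hydrophobin, the product of eas. The con genes were first isolated through their expression in conidiating cultures, and many of them, like eas, also respond to light and the circadian clock.

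The 26 libraries held 11.8 M to 110.6 M reads recovered from the deposited coverage, with 41.2 M, 108.3 M and 110.6 M in the no-carbon 4 h libraries. Reads were 51 bases long in all no-carbon libraries. They were 36, 40 or 50 bases long in the others, so read length and the absence of carbon cannot be told apart. Replicate 1 of wild type on Avicel and on sucrose had the shorter reads, 36 bases at 1 h and 40 bases at 4 h, and at most 15.9 M reads. Of the 75 genes, 10 were listed at 0 in replicate 1 on Avicel at 4 h, against 1 in replicate 2 and 0 in replicate 3. Hardly any gene was listed above 0 on under 10 reads (0.05% to 0.17% of the listed genes per library), so a gene listed at 0 had too few reads for a value and may still be expressed. The deleted clr-2 was at 0 in the 4 libraries of its deletion strain, and clr-1 at 6.13 to 23.1 FPKM in those of its own. RNA was taken from whole cultures, so fewer cells of a type and less RNA per cell cannot be told apart.

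The genes spanned a wide range of levels. Their no-carbon 4 h means ran from 21.5 to 116679 FPKM with a median of 236.8 FPKM, against medians of 49.6 FPKM on Avicel and 10.1 FPKM on sucrose. In all, 7 genes exceeded 1000 FPKM, 55 exceeded 100 FPKM and 10 lay under 50 FPKM. The ratio to Avicel was the smaller one for 70 genes. It had a median of 4.16 and ran from 3.01 to 9.43, with 21 genes at 5 or more. The ratio to sucrose had a median of 22.5 on the scale with 1 added, and 19 genes were listed at 0 in every sucrose 4 h library. Of 7337 genes with at least 20 FPKM without carbon, 91 met both ratios, and 16 of those were lost because single libraries overlapped. Of the same 7337, the lowest no-carbon library lay above every Avicel library for 20.8% and above every sucrose library for 42.5%. Just inside the ratio stood con-13 at 3.01, NCU11881 at 3.02 and NCU06616 at 3.06. Just outside it stood NCU04282 and the isocitrate lyase gene acu-3, both at 2.98, and NCU11466 at 2.97. NCU00011, NCU03879 and NCU04285 lay nearest above the 20 FPKM floor with means of 21.5, 22.8 and 25.1 FPKM, and NCU02607, NCU11289 and NCU05031 nearest below it with 18.1, 16.1 and 16.1 FPKM.

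**Figure D1:**
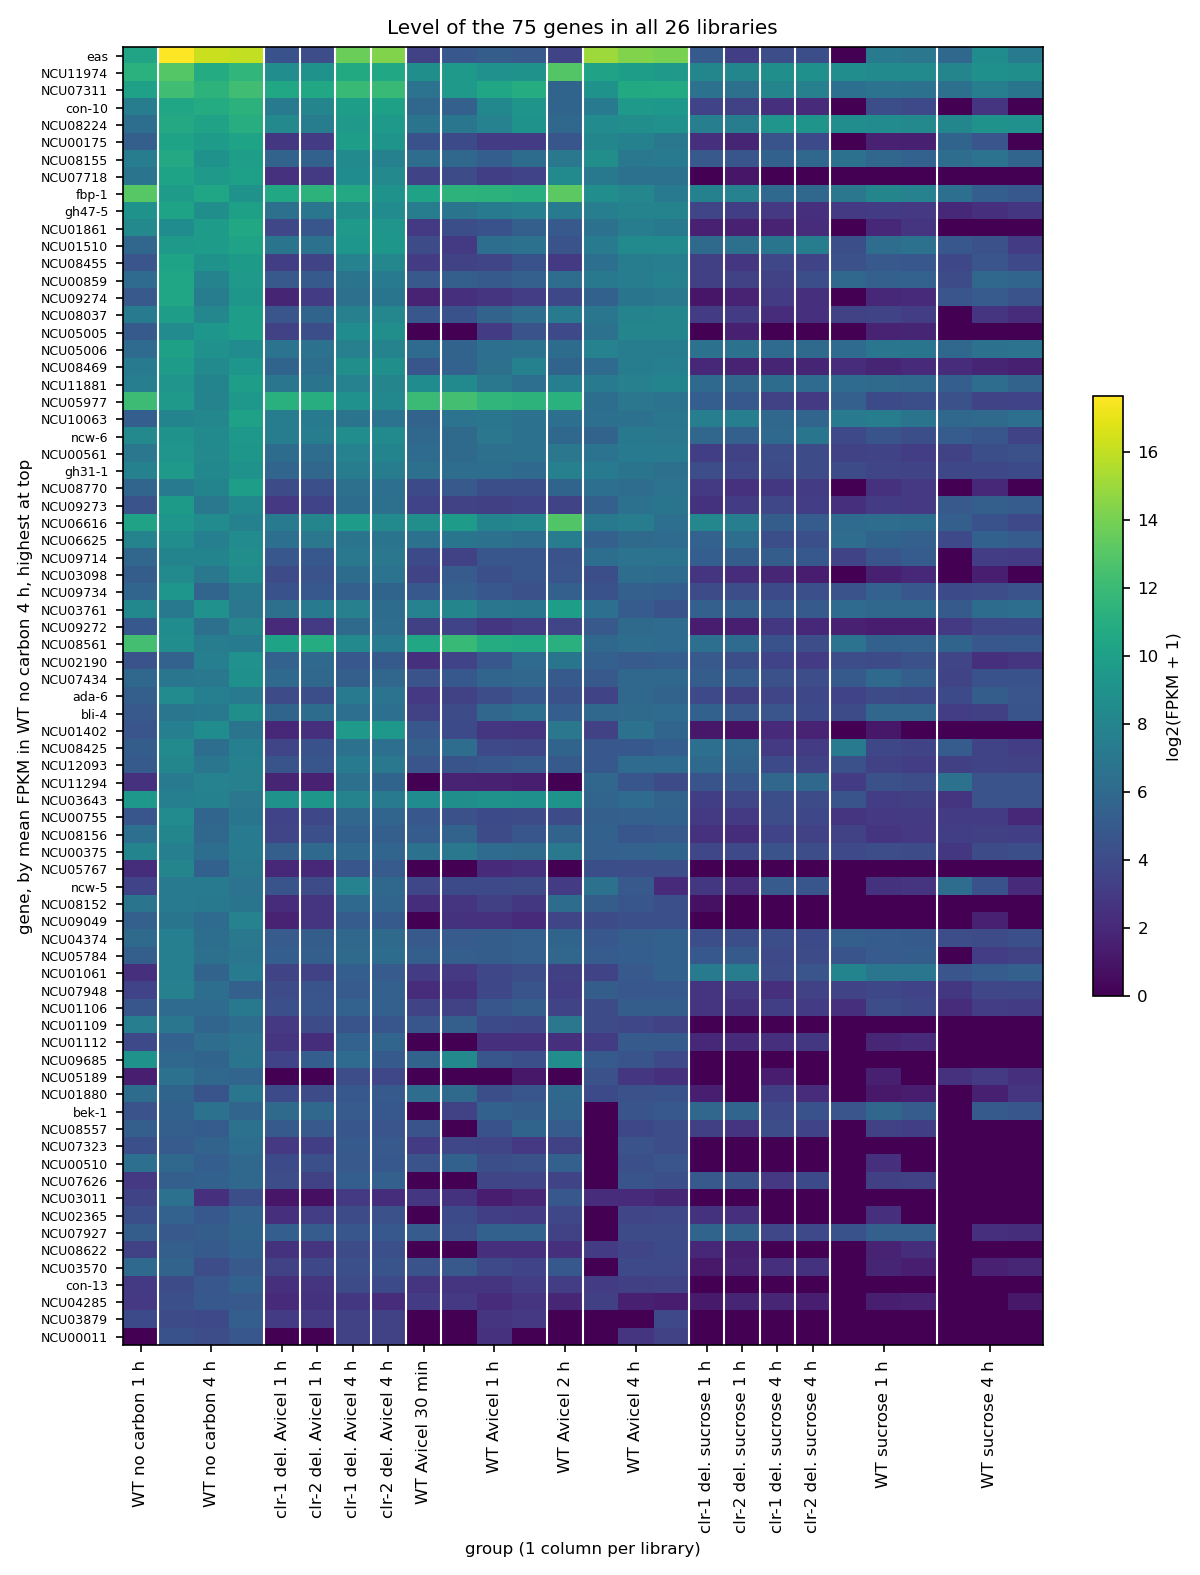
Level of the 75 genes (rows, ordered by mean FPKM without carbon at 4 h) in the 26 libraries (columns, grouped by strain, medium and time), as log2(FPKM + 1) from dark (0) to bright. Most rows are brightest in the 3 no-carbon 4 h columns, next in the deletion strains and wild type on Avicel at 4 h, and darkest on sucrose, while a few rows such as fbp-1 and NCU08561 are brighter at 1 h without carbon.

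Of the 11 genes with a symbol, 3 belong to conidiation. The hydrophobin gene eas had 206272, 78251 and 65514 FPKM in the no-carbon 4 h libraries, 34619.9, 20371 and 17326 FPKM on Avicel and 62.5, 388 and 155 FPKM on sucrose. All 3 groups were apart from each other, and the first no-carbon library was more than 2 times the other 2. con-10 had 1399.9, 1850.5 and 2575 FPKM without carbon and 158, 699 and 679.5 FPKM on Avicel. On sucrose it was listed at 0 in replicates 1 and 3 and had 5.38 FPKM in replicate 2. con-13 was far lower per length, with 16.4, 26.4 and 43.1 FPKM without carbon, 7.66, 9.25 and 9.63 FPKM on Avicel and 0 in every sucrose library. The order of the 3 media was the same for the 3 genes, but their no-carbon replicates were not ordered alike: eas was highest in replicate 1, and con-10 and con-13 in replicate 3.

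Development and light are also in the names of the next genes. ada-6, a transcription factor gene named for the altered development of its deletion strain, had 369, 198 and 144 FPKM without carbon, 11.5, 57.2 and 47.7 FPKM on Avicel and 14.6, 35.5 and 24.3 FPKM on sucrose. Its Avicel and sucrose libraries overlapped. The blue-light-induced gene bli-4 had 119.8, 138 and 437 FPKM without carbon, 57.3, 66.99 and 72.5 FPKM on Avicel and 8.30, 8.97 and 23.5 FPKM on sucrose, so that its replicate 3 without carbon was more than 3 times the other no-carbon libraries. bek-1 had 43.8, 97.4 and 53.9 FPKM without carbon. It was listed at 0 in the 40-base library of both other media and had 22.5 and 27.4 FPKM in the other Avicel libraries and 30.3 and 25.3 FPKM in the other sucrose libraries.

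The metabolic member with a symbol was fbp-1, which encodes fructose bisphosphatase, a gluconeogenic enzyme. It had 867, 1348 and 522 FPKM without carbon at 4 h, 408, 283 and 153 FPKM on Avicel and 88.02, 37.8 and 28.3 FPKM on sucrose. It had 8596 FPKM without carbon at 1 h, and on Avicel 1151 FPKM at 30 min, 2774, 2558 and 2223 FPKM at 1 h and 9427 FPKM at 2 h. The 30 min library lay inside the no-carbon 4 h range and the 1 h and 2 h libraries in these 2 media above it, while on sucrose at 1 h it had 127, 257 and 222 FPKM, below that range. The 4 h no-carbon level was therefore highest only among the 4 h wild-type groups.

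Carbohydrate-active enzymes and wall proteins gave 4 more named genes. gh47-5, of a family of alpha-mannosidases, had 1229, 443 and 1038 FPKM without carbon, 184, 236 and 233 FPKM on Avicel and 3.05, 4.42 and 6.000 FPKM on sucrose. gh31-1, of a family that holds alpha-glucosidases, had 698, 303 and 501 FPKM without carbon, 163, 112 and 90.96 FPKM on Avicel and 12.9, 13.4 and 14.6 FPKM on sucrose. The sucrose libraries of both genes lay close together and far below the rest. ncw-6, a gene for a non-anchored cell wall protein, had 539.9, 352 and 681 FPKM without carbon, 47.9, 142 and 126 FPKM on Avicel and 35.04, 24.9 and 11.5 FPKM on sucrose. Its relative ncw-5 had 163, 156 and 105 FPKM without carbon, 98.5, 28.8 and 3.49 FPKM on Avicel and 77.9, 20.8 and 3.54 FPKM on sucrose. In ncw-5 the libraries of Avicel and of sucrose differed among themselves by more than 20 times, replicate 1 being the highest in both.

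**Figure D2:**
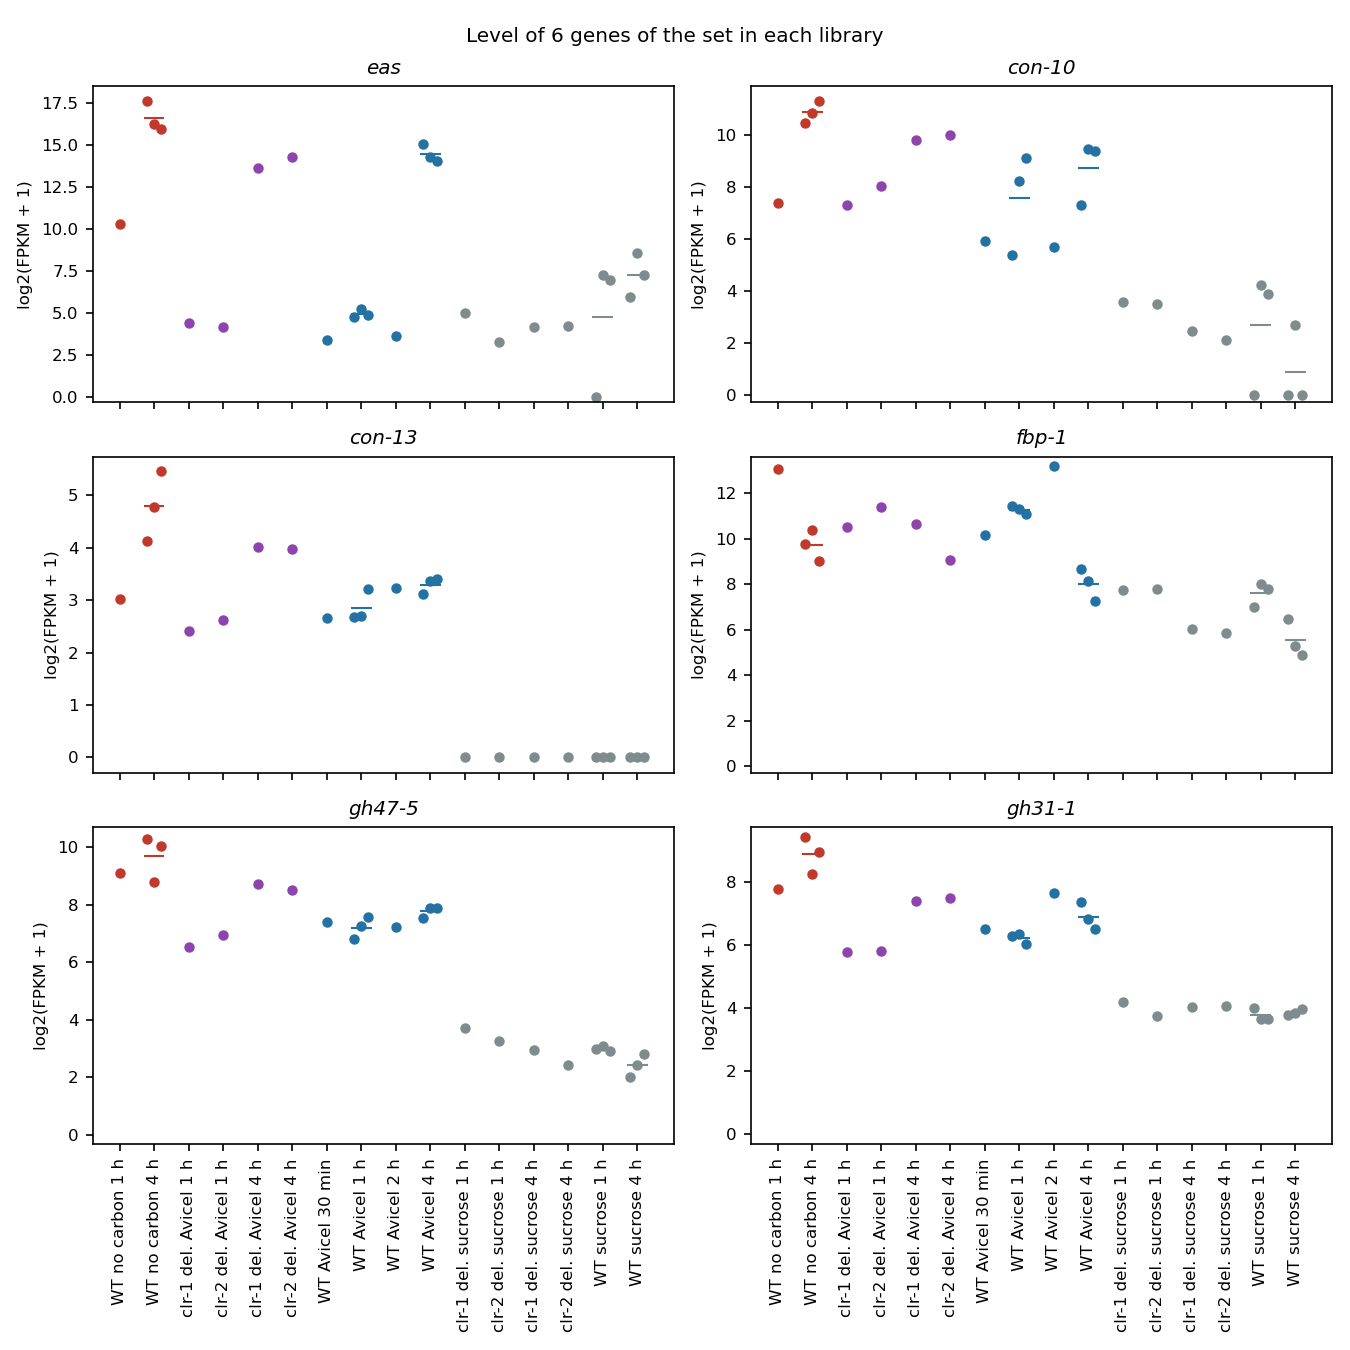
Level of 6 of the genes as log2(FPKM + 1), 1 point per library and a bar at the mean of the log2 values of triplicates (red, no carbon; purple, deletion strains on Avicel; blue, wild type on Avicel; grey, sucrose). eas has 13085 and 20484 FPKM in the deletion strains on Avicel at 4 h and 26.2 to 36.7 FPKM in wild type on Avicel at 1 h, while fbp-1 is higher at 1 h without carbon and at 2 h on Avicel than at 4 h.

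The other 64 genes are known only by locus number, and no role is given to them here. After eas, the highest mean belonged to NCU11974, with 7999, 1847 and 3131 FPKM without carbon, 1168, 927 and 723 FPKM on Avicel and 261, 471 and 444 FPKM on sucrose. NCU07311 came next, with 4844, 2785 and 4824 FPKM without carbon, 518, 1697 and 1774 FPKM on Avicel and 89.4, 187 and 113 FPKM on sucrose. In NCU11974 no-carbon replicate 1 was more than 2 times the others, whereas in NCU07311 replicates 1 and 3 were alike. NCU08224 was of another kind, since its Avicel and sucrose libraries overlapped: 1632, 1155 and 2043 FPKM without carbon, 368, 413 and 484 FPKM on Avicel and 269, 529.7 and 495 FPKM on sucrose. NCU07718 had 1230.0, 719.6 and 990.4 FPKM without carbon, 142, 93.5 and 98.7 FPKM on Avicel and 0 in all wild-type sucrose libraries at 1 h and at 4 h.

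The largest ratio to the higher of the other media, 9.43, belonged to NCU03011 and came mostly from 1 library: it had 96.5, 4.57 and 18.3 FPKM without carbon and 3.81, 3.61 and 2.56 FPKM on Avicel. NCU07718 followed with 8.74, and NCU05767 with 8.04. NCU05767 had 261, 44.2 and 131 FPKM without carbon and 17.5, 16.97 and 17.2 FPKM on Avicel. NCU09734 (7.97) had 629, 53.9 and 139.8 FPKM without carbon, so that its first library also carried most of the ratio. NCU01861 (6.43) had 391, 878 and 1439 FPKM without carbon, 95.4, 181 and 142 FPKM on Avicel and 0 on sucrose.

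The spread of the no-carbon replicates is given as a description, because a rule on their mean favours genes with 1 extreme library. The coefficient of variation over the 3 libraries had a median of 45.8%, against 16.3% over the 7337 genes of at least 20 FPKM. For 10 of the 75 genes (13.3%) the highest no-carbon library was at least 5 times the lowest, against 1.87% of the 7337. Replicate 1 was the highest for 38 genes, replicate 3 for 31 and replicate 2 for 6, and replicate 2 was the lowest for 44. The choice of genes moved with single libraries. Without no-carbon replicate 2 the rule gave 114 genes, 70 of them among the 75. Without Avicel replicate 1 it gave 93, of which 53 were among the 75, and without no-carbon replicates 1 and 3 in turn 54 and 53 of the 75 remained.

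Some of the 75 genes are neighbours. In the coordinates of the files, whose build is not given in the sources used here, 12 (16%) lay next to another gene of the set, whereas 1.5% of all genes lie next to one, and 18 (24%) lay within 3 genes of another, against 4.13% of all genes. con-10 (supercontig 4, bases 4364944 to 4365763), con-13 (bases 4367319 to 4368460) and NCU07323 (bases 4368851 to 4369603) follow each other. NCU07323 had 32.5, 49.04 and 81.4 FPKM without carbon, 0, 21.8 and 17.3 FPKM on Avicel and 0 on sucrose. eas (supercontig 2, bases 3571946 to 3572797) lies 2 genes from NCU08455 (bases 3577345 to 3578476), which had 1192, 527 and 771 FPKM without carbon, 88.4, 169.7 and 188 FPKM on Avicel and 13.1, 24.1 and 14.02 FPKM on sucrose. For both eas and NCU08455 the highest library was no-carbon replicate 1.

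On supercontig 7, NCU09272, NCU09273 and NCU09274 stand side by side between bases 4129946 and 4140563. NCU09272 had 389, 92.3 and 264 FPKM without carbon against 29.4, 69.2 and 72.05 FPKM on Avicel. NCU09273 had 789.6, 134 and 306 FPKM without carbon against 42.4, 97.6 and 114 FPKM on Avicel. For NCU09274 the values were 1344, 182 and 639 FPKM without carbon against 43.4, 115 and 131 FPKM on Avicel. In each of the 3 genes no-carbon replicate 1 was the highest and replicate 2 the lowest. The other groups within 3 genes were NCU08156, NCU08155 and NCU08152 on supercontig 7, NCU01106, NCU01109 and NCU01112 on supercontig 5, NCU05006 and NCU05005 on supercontig 6, and NCU05189 and NCU11294 on supercontig 4. The libraries do not mark strand, so reads of overlapping genes cannot be told apart. This touches 3 of the 75 genes, NCU08037, NCU11881 and NCU03761, whose models overlap a neighbour. The transcripts had a median length of 1341 bases against 1599 bases over all genes, and 29.3% were under 1000 bases against 22.2%.

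The next counts set other libraries against the no-carbon 4 h libraries, whose high values chose the genes, so the rule favours these contrasts and nothing is read from the shares. In the single no-carbon 1 h library, 54 of the 75 genes (72%) lay below the lowest no-carbon 4 h library, against 40.2% of the 7337 genes, and 10 (13.3%) lay above the highest, against 40.6%. eas had 1253 FPKM at 1 h, con-10 168 FPKM and con-13 7.07 FPKM, all below their 4 h libraries. NCU00011 was listed at 0 at 1 h. NCU11294 had 4.69 FPKM at 1 h and 157, 228 and 203 FPKM at 4 h. The 10 genes above were fbp-1, NCU05977, NCU06616, NCU08561, NCU03643, NCU00375, NCU01109, NCU09685, NCU00510 and NCU03570. NCU08561 had 5427 FPKM at 1 h and 404, 168 and 165 FPKM at 4 h without carbon, and on Avicel 3765, 1941 and 1793 FPKM at 1 h and 59.2, 77.5 and 69.7 FPKM at 4 h. NCU05977 had 4339.8 FPKM at 1 h and 755, 236 and 696 FPKM at 4 h without carbon, and on Avicel 5399, 3171 and 2737 FPKM at 1 h and 83.3, 126 and 106 FPKM at 4 h. Both were therefore high 1 h after the shift in either medium and lower at 4 h. The 1 h no-carbon library, which has no replicate, lay above the highest Avicel 1 h library for 49 of the 75 genes (65.3%), against 30.2% of the 7337.

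**Figure D3:**
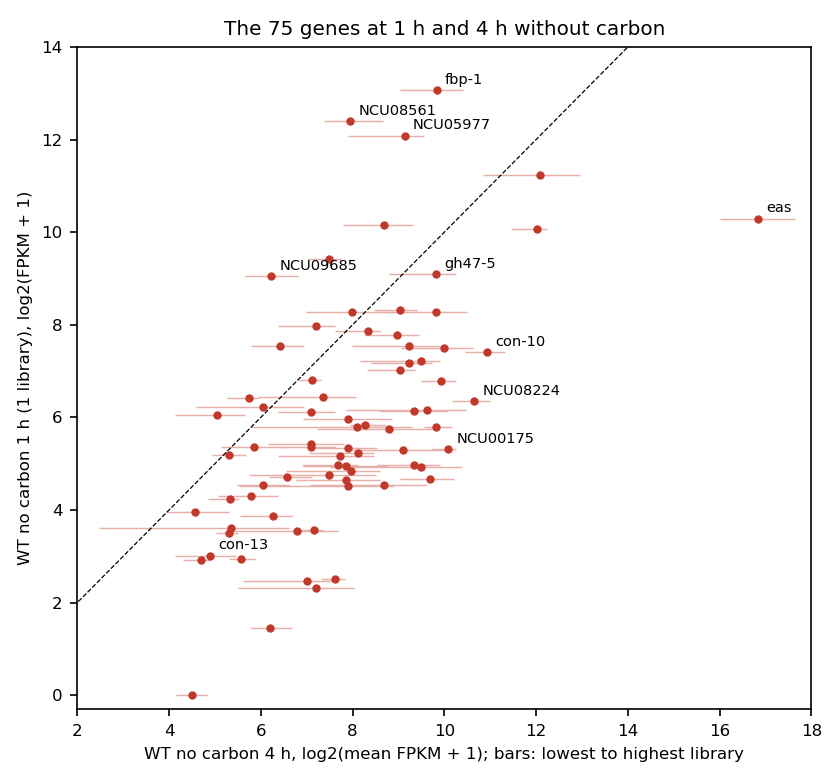
Level of each of the 75 genes in the single no-carbon 1 h library (y axis) against its mean over the 3 no-carbon 4 h libraries (x axis), both as log2(FPKM + 1), with bars from the lowest to the highest 4 h library and a dashed line of equality. Most points lie below the line, eas furthest to the right, and fbp-1, NCU08561 and NCU05977 lie above it.

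The rule also favours the next count, since it kept every wild-type Avicel and sucrose 4 h library below the no-carbon ones. In all, 15 genes (20%) had a library of another group above their highest no-carbon 4 h library, against 84.6% of the 7337 genes. That library was the no-carbon 1 h one for 7 of the 15 and Avicel at 2 h for 3. The 36-base Avicel 2 h library exceeded all other wild-type Avicel libraries, the low 4 h ones of the rule included, for 17 genes (22.7%; 12.7% of the 7337). Among these were fbp-1, NCU11974, with 7657 FPKM at 2 h against 1168, 927 and 723 FPKM at 4 h, and NCU06616, with 7473 FPKM at 2 h against 139.9, 172 and 87.3 FPKM at 4 h. The 2 h time point is 1 library.

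The 17 libraries that the rule did not use allowed tests. limma was fitted to log2(FPKM + 1) of 8561 genes, and a difference was called where the two-sided Benjamini-Hochberg adjusted p was under 0.05. All 75 genes were among those tested. A group of 1 library was assumed to vary like the triplicates. Log2 differences are on the scale of log2(FPKM + 1) and understate changes of low genes, and for a gene at 0 on sucrose their size depends on the 1 that is added.

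Without carbon for 1 h, most of the genes were already above sucrose. Against sucrose at 1 h, 41 of 75 (54.7%) were higher and 3 lower, where 33.1% of all tested genes were higher and 21.7% lower, and the median log2 difference was 3.01 against 0.44 over all tested genes. The largest belonged to NCU09685, with 527 FPKM without carbon and 0 in the 3 sucrose libraries, a log2 difference of 9.04 (SE 1.48, adjusted p = 0.00336). NCU05977, with 4339.8 FPKM without carbon against 40.9, 14.3 and 17.6 FPKM on sucrose, rose by 7.57 (SE 0.64, adjusted p = 0.00039). fbp-1 rose by 5.46 (SE 0.41, adjusted p = 0.00027) and gh47-5, with 545 FPKM against 6.92, 7.56 and 6.60 FPKM, by 6.09 (SE 0.34, adjusted p = 0.00013). ncw-6, gh31-1 and con-13 also rose, by 4.10, 4.01 and 3.01 on the log2 scale.

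Several named genes did not pass at 1 h. eas had 1253 FPKM without carbon and 0, 157 and 126 FPKM on sucrose, a log2 difference of 5.53 (SE 2.74, adjusted p = 0.132), with adjusted p from 0.000625 to 0.221 over its 12 alternatives. Without sucrose replicate 1, where it was listed at 0, its difference was 3.15 and passed, at an adjusted p of 0.00185. con-10 had a difference of 4.70 (SE 2.02, adjusted p = 0.0931), with adjusted p from 0.00261 to 0.169 over its 12 alternatives, the call being made with all 26 libraries (0.0253) and without both 36-base libraries (0.00261). Its sucrose libraries had 0, 17.96 and 13.5 FPKM. ada-6 (1.48), ncw-5 (1.81), bli-4 (-0.28) and bek-1 (-0.68) were not called. The 3 lower genes were NCU01061, with 4.55 FPKM against 254, 124 and 122 FPKM (-4.83, SE 0.63, adjusted p = 0.00153), NCU10063 (-1.89, SE 0.31, adjusted p = 0.00335) and NCU08224, whose adjusted p was 0.0428. For NCU08224 it ran from 0.00665 to 0.0893 over its 12 alternatives. The call by limma was lost without Avicel replicate 2 (0.0791) and without sucrose replicate 1, 2 or 3 (0.0879, 0.0893 and 0.0748). It was also lost without a filter on low values (0.0613) and with pseudocount 0.1 (0.0505).

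On Avicel for 1 h (3 libraries), the counts against sucrose were much like those without carbon (1 library), but the median difference was smaller. Against sucrose at 1 h, 40 of 75 (53.3%) were higher and 2 lower, where 35.3% of all tested genes were higher and 23.3% lower, and the median log2 difference was 1.39 against 0.34 over all tested genes. NCU05977, with 5399, 3171 and 2737 FPKM on Avicel, had the largest rise, 7.30 (SE 0.45, adjusted p = 9.5e-05), followed by NCU09685, NCU08561 and NCU03643 (5.79, 5.28 and 5.19). In NCU09685 the 36-base library had 319 FPKM and the others 25.4 and 19.3 FPKM. gh47-5 rose by 4.20 (SE 0.24, adjusted p = 7.7e-05) and fbp-1 by 3.69 (SE 0.29, adjusted p = 0.00018). gh31-1, ncw-6 and con-13 rose by 2.44, 2.33 and 2.86.

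Among the conidiation genes con-10 was called there and eas was not. con-10 had 41.2, 303 and 551 FPKM on Avicel at 1 h against 0, 17.96 and 13.5 FPKM on sucrose and rose by 4.88 (SE 1.43, adjusted p = 0.0265), with adjusted p from 0.000224 to 0.0888 over its 13 alternatives. Without Avicel replicate 2 or 3 it was 0.0888 or 0.0886, and with pseudocount 0.1 it was 0.0634, so that the call by limma was lost. eas had 26.2, 36.7 and 29.4 FPKM on Avicel and 0, 157 and 126 FPKM on sucrose, a log2 difference of 0.21 (SE 1.94, adjusted p = 0.935) that was not called. Without the sucrose library listed at 0, replicate 1, that difference was -2.17 with an adjusted p of 0.00183, so that eas was then called lower on Avicel. ncw-5 rose by 2.21 (SE 0.74, adjusted p = 0.0417), with adjusted p from 0.00253 to 0.121 over its 13 alternatives. Without Avicel replicate 1, 2 or 3 it was 0.0904, 0.101 or 0.106. NCU01061, with 6.46, 12.8 and 16.9 FPKM on Avicel against 254, 124 and 122 FPKM on sucrose, fell by 3.69 on the log2 scale (SE 0.45, adjusted p = 0.00089), and NCU11294, with 2.25, 2.07 and 1.79 FPKM against 7.32, 20.2 and 17.3 FPKM, fell by 2.29 (SE 0.40, adjusted p = 0.00352).

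Set directly against Avicel at 1 h, the no-carbon library gave 1 call by limma, NCU08152. Of all tested genes 0.0818% were called higher and 0.0701% lower. At an unadjusted p under 0.05 there were 22 of the 75 genes and 1102 of all 8561 tested genes, in either direction. NCU08152 had 111 FPKM without carbon and 5.16, 9.13 and 6.43 FPKM on Avicel, a log2 difference of 3.85 (SE 0.38, adjusted p = 0.0388), with adjusted p from 0.00127 to 0.209 over its 12 alternatives. The call was lost without Avicel replicate 2 or 3 (0.135 and 0.101) and without sucrose replicate 1, 2 or 3 (0.0811, 0.149 and 0.209), which enter through the spread. It was also lost with pseudocount 0.1 (0.0631). The median log2 difference of the 75 genes was 0.99, against 0.08 over all tested genes, and 63 of the 75 lay above 0. These counts depend on the 36-base libraries. Without replicate 1 on Avicel 14 of the 75 were higher, beside 3.66% of all tested genes, and without replicate 1 on both Avicel and sucrose 30 were higher and 2 lower, beside 14.2% and 10.9%. The 36-base reads go with replicate 1, and their part in the result was not tested.

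**Figure D4:**
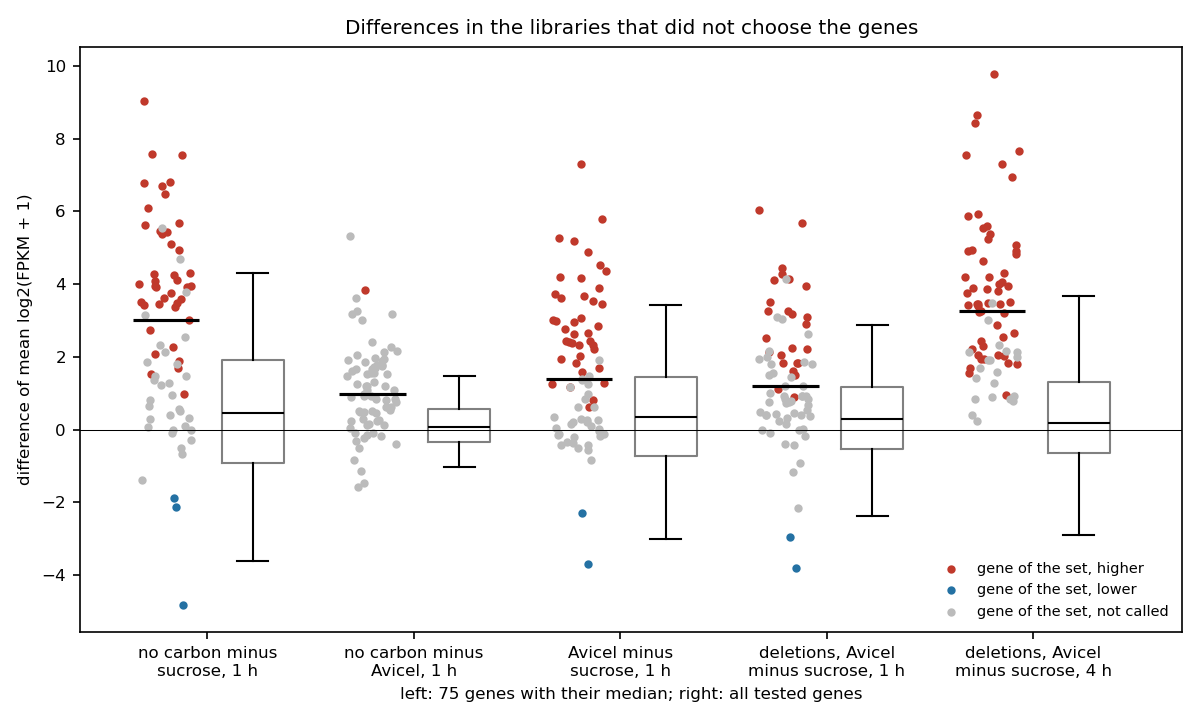
Differences of mean log2(FPKM + 1) in the 5 comparisons of libraries that did not choose the genes. Points are the 75 genes (red, called higher; blue, called lower; grey, not called) with a bar at their median, and boxes show all 8561 tested genes (median, quartiles, whiskers at the 5th and 95th percentiles). The medians of the 75 are 3.01, 0.99, 1.39, 1.19 and 3.25, each above the median of all tested genes.

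In the clr-1 and clr-2 deletion strains the genes were high on Avicel at 4 h. Taking the strains together, 55 of 75 (73.3%) were higher on Avicel than on sucrose at 4 h and 0 lower by limma, where 25.5% of all tested genes were higher and 17.3% lower. At an unadjusted p under 0.05 there were 63 of the 75, beside 4374 of all 8561 tested genes in either direction. All 75 differences lay above 0, with a median of 3.25 against 0.18 over all tested genes. Each strain alone gave 39 genes, beside 13.7% of all tested genes for clr-1 and 15.8% for clr-2. Without 1 wild-type 1 h library in turn these counts were 35 to 47 and 31 to 50. The share of all tested genes moved too, from 9.214% to 21.41% for clr-1 and from 11.04% to 23.54% for clr-2. Without both 36-base libraries 65 genes were higher in each strain, beside 30.7% and 32.0%. eas had 13085 and 20484 FPKM on Avicel in the clr-1 and clr-2 deletion strains and 17.2 and 17.8 FPKM on sucrose, a log2 difference of 9.79 (SE 2.37, adjusted p = 0.0185). con-10 had 912 and 1039.7 FPKM on Avicel and 4.53 and 3.27 FPKM on sucrose, a difference of 7.65 (SE 1.75, adjusted p = 0.0153). In each strain alone, adjusted p was 0.0918 and 0.0725 for eas and 0.08 and 0.0609 for con-10, so neither passed, nor did either with 0.1 FPKM added in place of 1. con-13, at 0 on sucrose in both strains, had 15.2 and 14.7 FPKM on Avicel.

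Beyond the conidiation genes, NCU05005 had 383 and 423 FPKM on Avicel in the 2 deletion strains and 0 on sucrose, and NCU07718 377 and 309 FPKM on Avicel and 0 on sucrose. NCU01402 had 729.7 and 676 FPKM on Avicel and 3.29 and 2.24 FPKM on sucrose, a difference of 7.56 (SE 0.61, adjusted p = 0.00035). gh47-5 rose by 5.93 (SE 0.30, adjusted p = 0.00011), fbp-1 by 3.90 (SE 0.35, adjusted p = 0.0005), gh31-1 by 3.39, ada-6 by 3.21 and ncw-6 by 2.06. Those not called included bli-4 (2.12, SE 0.93, adjusted p = 0.114), ncw-5 (1.98, SE 0.90, adjusted p = 0.127), bek-1 (0.79), NCU08224 (0.39) and NCU11294 (0.25). By limma, bli-4 was called with all 26 libraries (adjusted p = 0.0466) and without both 36-base libraries (0.00219). ncw-5 was called with pseudocount 10 (0.00155), without sucrose 1 h replicate 1 (0.00288) and without both 36-base libraries (0.000867).

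The deletion strains on Avicel can be set beside the wild-type 4 h libraries, which chose the genes, as a description only. Both deletion libraries on Avicel lay above the highest wild-type Avicel library for 49 of the 75 genes (65.3%), against 28.3% of the 7337 genes, and below the lowest for 1, NCU02190, against 17.6%. Without the 40-base wild-type library the first count was 59 (78.7%; 40.7% of the 7337). A low wild-type Avicel level was part of the rule, so nothing is read from these shares. The mean of the deletion strains was 1.78 times that of wild type on Avicel and 0.45 times that of wild type without carbon, as medians over the genes on the scale with 1 added. For 49 genes both deletion libraries stayed below every no-carbon library, against 20.5% of the 7337, and for 14 (18.7%) both were at or above the lowest, against 63.4%.

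NCU01402 was 1 of these 14 and stood above all its no-carbon libraries, its 729.7 and 676 FPKM in the deletion strains standing against 199, 386 and 108 FPKM in wild type without carbon and 10.2, 101 and 53.8 FPKM in wild type on Avicel. NCU07311 had 3831 and 3876 FPKM, inside its no-carbon range. eas, at 13085 and 20484 FPKM, stood within or below its wild-type Avicel range of 17326 to 34620 FPKM. The 2 strains differed by at least 2 times for 6 genes, and in all 6 the clr-1 deletion strain was the higher: fbp-1 (1626 and 536 FPKM in the clr-1 and clr-2 deletion strains), NCU06616, NCU03761, NCU08561, ncw-5 and NCU09685. With 1 library per strain this difference has no replicate check.

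After 1 h the deletion strains gave fewer calls. On Avicel against sucrose at 1 h, 25 of 75 (33.3%) were higher and 2 lower, where 23.2% of all tested genes were higher and 15% lower, with a median log2 difference of 1.19 against 0.29. The clr-1 deletion strain alone gave 13 higher and 2 lower genes (8.25% and 5.63% of all tested), and the clr-2 deletion strain 19 higher and 2 lower (13.7% and 9.48%). Leaving out 1 wild-type 1 h library in turn, which enters through the spread, gave 5 to 23 higher genes for clr-1 (5 without sucrose replicate 3, 7 without sucrose replicate 2, 8 without Avicel replicate 2, 23 without Avicel replicate 1) and 13 to 29 for clr-2 (29 without Avicel replicate 1). Over all tested genes the shares moved too, from 3.26% to 17.1% for clr-1 and from 7.71% to 22.6% for clr-2. Without both 36-base libraries, the count of both strains together was 48 beside 39.8%. NCU05977 rose by 6.03 (SE 0.55, adjusted p = 0.00093) and NCU03643 by 5.68 (SE 0.47, adjusted p = 0.00073). The 2 lower genes were NCU01061 and NCU11294, the same that fell in wild type at 1 h. The difference between deletion strains and wild type in this 1 h response was tested as an interaction. It gave 0 calls by limma among all 8561 genes. At an unadjusted p under 0.05 there were 6 of the 75 and 498 of all 8561 tested genes. The median of the 75 was -0.29 against -0.01 over all tested genes.

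Genes of related pathways, listed by symbol and not by how they moved, were followed in the fit of all 26 libraries to 8629 genes. In it 1.73% of genes were higher and 3.66% lower without carbon than on Avicel at 4 h, and 39.6% higher and 23.6% lower than on sucrose. By the same fit 38 and 74 of the 75 chosen genes were higher in the 2 comparisons, from which nothing is read because the rule used these libraries. Of 19 conidiation and clock-controlled genes, 1 was called higher without carbon than on Avicel, con-13, and 0 lower by limma. Against sucrose 14 were higher and 1 lower. Among the 16 that are not in the set, 0 were called against Avicel and 11 were higher against sucrose, with medians of 0.43 and 1.97 against 0.15 and 0.37 over all tested genes. con-6, another conidiation gene, had 1516, 5383 and 4879 FPKM without carbon, against 2082, 654 and 517 FPKM on Avicel and 0, 8.01 and 3.85 FPKM on sucrose. Its no-carbon and Avicel libraries overlapped, and the difference from Avicel was 1.94 (SE 0.94, adjusted p = 0.308).

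The summed level of these 19 genes ran from 433415.5 to 460600.4 FPKM without carbon at 4 h, against 162172.1 to 225143.5 FPKM on Avicel and 43158.9 to 46359.2 FPKM on sucrose. Without the 3 genes of the set it ran from 228670.7 to 392468.1, against 127386.9 to 207128.8 and 42765.5 to 46296.7 FPKM. In the deletion strains on Avicel at 4 h the sum of all 19 was 233566.6 and 242922.2 FPKM. Of the sum of the 16 genes outside the set, 1 of them, ccg-1, made up 72.3% to 76.9% without carbon at 4 h. Its share of that sum was 41.2% to 67% on Avicel and 0.756% to 3.1% on sucrose. Without ccg-1 and the 3 genes of the set the sum was 56964.7 to 97818.4 FPKM without carbon, 66629.0 to 74959.7 FPKM on Avicel and 41438.9 to 44886.0 FPKM on sucrose, so that no carbon and Avicel overlapped. Of the 16 genes outside the set, 10 had a difference from Avicel above 0 and 6 below 0, among them ccg-4, ccg-6, ccg-8, ccg-9, csp-2 and acon-2, which were named after their values were seen. The part that conidiating cells have in the levels of the 75 genes was not tested. None of the 19 was at 0 in a no-carbon 4 h or wild-type Avicel 4 h library.

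Light and clock genes were in part higher too. Of 11, 2 were higher without carbon than on Avicel, the photoreceptor gene cry and the carotenoid synthesis gene al-3, and 9 were higher and 1 lower than on sucrose. al-3 had 1639, 659 and 1387 FPKM without carbon against 383, 514 and 523 FPKM on Avicel, a log2 difference of 1.29 (SE 0.29, adjusted p = 0.0165). cry had 229, 691 and 1289 FPKM without carbon against 124, 127 and 119 FPKM on Avicel (2.25, SE 0.45, adjusted p = 0.0084). For both, every no-carbon library was above every Avicel library, though neither gene met the rule. cry was named after its values were seen, and light conditions are not given in the labels.

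Among 7 genes of acetate use, the glyoxylate cycle and gluconeogenesis, fbp-1 was the 1 called against Avicel, while 4 were higher and 2 lower than on sucrose. Nothing is read from fbp-1 here, because the rule used these libraries. Of the 6 outside the set, 0 were called against Avicel, and 3 were higher and 2 lower than on sucrose. acu-3 had 1874, 836 and 808 FPKM without carbon against 293, 230 and 151 FPKM on Avicel and did not pass, at 2.31 (SE 0.78, adjusted p = 0.122). acu-6, which encodes phosphoenolpyruvate carboxykinase, had 1161, 12642 and 600 FPKM without carbon and 9303, 584 and 82.7 FPKM on Avicel, so that 1 library of each group stood far above its others (1.43, SE 1.39, adjusted p = 0.651). At 1 h, in the fit of 17 libraries, all 7 were higher on Avicel than on sucrose, beside 35.3% of all tested genes, and 6 of 7 were higher without carbon than on sucrose, beside 33.1%.

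Of 74 glycoside hydrolase genes tested, 2 were higher without carbon than on Avicel, gh47-5 and gh31-1 of the set, 27 were lower and 45 were not called. Compared with sucrose, 47 were higher and 5 lower. Nothing is read from the 2 genes of the set, because the rule used these libraries. Among the 72 outside it, 0 were higher and 27 lower than on Avicel, and 45 were higher and 5 lower than on sucrose. Of 20 peroxisome genes, pex11 was the 1 called higher than on Avicel (1.00, SE 0.22, adjusted p = 0.0163), and 7 were higher and 3 lower than on sucrose. Of 7 genes of alternative respiration, aod-2 was the 1 higher than on Avicel (1.27, SE 0.19, adjusted p = 0.00082), with 2 higher and 1 lower than on sucrose. Of 9 nitrogen genes, nit-6, for nitrite reductase, was the 1 lower than on Avicel (-2.30, SE 0.45, adjusted p = 0.00664; named after its values were seen), and 6 were lower and 2 higher than on sucrose. None of 10 heat shock, 7 cytosolic ribosomal protein, 7 quinic acid, 6 catalase and superoxide dismutase, 4 reserve carbohydrate and 2 autophagy genes was called between no carbon and Avicel by limma. Against sucrose, 8 of the heat shock and all 7 ribosomal protein genes were lower, 4 of the quinic acid genes and both autophagy genes, atg-8 and apg-1, were higher, and catalase and superoxide dismutase genes gave 3 higher and 2 lower and reserve carbohydrate genes 1 of each. Of 3 sugar transporters 2, cdt-1 and cdt-2, were lower than on Avicel and all 3 higher than on sucrose. Of 6 regulators of the carbon response, clr-1, clr-2, xlr-1 and vib-1 were lower than on Avicel, and 3 were higher and 1 lower than on sucrose.

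In the authors' deposited table of an edgeR test between no carbon and Avicel at 4 h, all 75 genes were listed with a positive log2 fold change, from 1.41 to 3.91 with a median of 2.26, and 74 had an adjusted p under 0.05. Of the 9000 genes listed there, 5.72% had a positive change at that threshold. The table does not state its direction. For 115 of 115 genes that differed by at least 8 times in FPKM, its sign ran as no carbon over Avicel. The same libraries chose the genes, so this is a description of the set under a count model. NCU03879, with 15.95, 14.2 and 38.4 FPKM without carbon against 0, 0 and 13.995 FPKM on Avicel, was the 1 gene that did not pass there.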

How the data were processed

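Poly(A) RNA of whole cultures was sequenced without strand marking. Per the submitters' processing notes, the authors used TopHat, Cufflinks 0.9.3, HTSeq, edgeR and DESeq. FPKM and coverage signal per transcript were deposited per library, per the file headers, and the denominator of FPKM and the genome build are not given in the sources used here. The authors' deposited edgeR table gives log2 fold changes, p-values and adjusted p-values. The authors' deposited DESeq tables were not used, because the group named in each mean's header goes against the FPKM. In the sample tables, 0 columns of values were left unused for want of a sample.

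FPKM of transcripts was summed to 9733 genes. Reads were recovered as coverage times effective length over read length (for transcripts under 200 reads, 87.5% to 93.0% of values were whole within 0.02), which gave the depths. Their number limits the precision of low genes. limma 3.58.1 (R 4.3.3, trended prior) was fitted to log2(FPKM + 1) after genes averaging under 1 FPKM had been dropped, with 1 term per strain, medium and time. The 26 libraries gave 8629 genes and 10 residual degrees of freedom, and the 17 libraries outside the rule gave 8561 genes and 4. Tests were two-sided with Benjamini-Hochberg adjustment over all tested genes, and the scripts were checked on simulated data. Figures were drawn with matplotlib 3.10.9.

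The genes, the lists and the tests were chosen with earlier results of these data known. Named were genes among the 10 highest, the 10 with the largest ratio, those with a symbol (taken from RefSeq by locus tag, for 71 of 75 genes found there), the 5 largest and 5 smallest differences per test and those at the edges of the rule. Neighbouring genes and further examples were named after their values were seen. The lists were patterns of gene symbols, and up to 4 genes outside the set were eligible for naming per list.

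Replicates of a group correlated at 0.901 to 0.992, and 0 pairs of libraries were identical. Same-numbered wild-type libraries on Avicel and sucrose at 1 h deviated together (0.283, 0.176 and 0.236), although replicate 1 also shares 36-base reads. The numbers were taken to pair them in the replicate block only, an alternative, and the 1 h tests in the Results used no block. Between sucrose at 4 h and at 1 h the values were 0.214, 0.273 and 0.064. The 1 h values therefore do not show a pairing particular to the 1 h cultures. With the replicate block, fitted to the wild-type 1 h libraries of these media alone (8440 genes), Avicel against sucrose gave 41 genes higher and 2 lower. Of all tested genes it gave 38.6% and 26.0%. Alternatives changed the rule's ratio, floor and added value, the pseudocount, the filter, the scaling, the libraries and the block. The settings without the 40-base libraries were chosen after seeing the data.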

Additional observations from a re-analysis of the deposited data

Results flagged for a closer look

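For 2 of the 75 genes the response to Avicel at 1 h ran in opposite directions in the deletion strains and in wild type, in every library of both. This was so for 2.67% of the 75 and for 86 of 8561 tested genes (1%). NCU00859 had 29.5 and 31.4 FPKM on Avicel against 9.04 and 9.73 FPKM on sucrose in the clr-1 and clr-2 deletion strains, and 40.5, 31.7 and 41.3 FPKM on Avicel against 57.4, 41.7 and 45.1 FPKM on sucrose in wild type. The difference between the responses, 1.94 on the log2 scale, was positive and did not pass limma's interaction test (adjusted p = 0.533). NCU12093 had 23.4 and 25.2 FPKM on Avicel against 64.6 and 47.8 FPKM on sucrose in the deletion strains, and 23.6, 26.8 and 34.1 FPKM on Avicel against 19.5, 10.2 and 8.40 FPKM on sucrose in wild type. Its difference of -2.32 did not pass either (adjusted p = 0.684). Each deletion strain is 1 library per medium.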

How the results depend on the processing

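The rule gave 75 genes, 232 with a ratio of at least 2 and 19 with a ratio of at least 5. With 10 added to each mean in place of 1 it gave 51 genes, all among the 75. With 0.1 added it gave 78, which held all 75. A floor of 50 FPKM left 65 of the 75, and scaling to the median of gene ratios left 66. Leaving out 1 library of the 4 h groups in turn gave 70 to 114, the 114 without no-carbon replicate 2, and without both 40-base libraries 100 were chosen, 53 of them among the 75. The 149 genes of all tested that were higher without carbon than on Avicel at 4 h became 232 with pseudocount 10. Without single libraries they became 70 to 143, the smallest without no-carbon replicate 3. With the replicate block they became 94. The block was fitted to the wild-type 4 h libraries alone (8693 genes). Its part and that of the smaller set of libraries cannot be told apart. Same-numbered no-carbon libraries did not deviate together with those of the other media (-0.21, -0.314 and 0.453 against Avicel, -0.118, -0.096 and -0.019 against sucrose), so the no-carbon numbers were not taken as pairs, while Avicel and sucrose at 4 h, which are not compared here, gave 0.183, 0.121 and 0.181. With the block 276 genes were lower than on Avicel, and 3428 were higher and 2050 lower than on sucrose. At 1 h the block, fitted to the wild-type Avicel and sucrose 1 h libraries alone, changed no call of a named gene.

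At 1 h, the 1 gene higher without carbon than on Avicel became 3 with all 26 libraries, 4 without a filter, 0 with pseudocount 0.1, 4 with pseudocount 10, 0 to 14 without single libraries, and 30 higher and 2 lower without both 36-base libraries. Of all tested genes, the same settings in turn gave 0.32%, 1.23%, 0.15%, 0.26% and 0% to 3.66% higher, then 14.2% higher and 10.9% lower. Without both 36-base libraries, the 3 genes lower without carbon than on sucrose became 5. The deletion strains at 1 h then gave 48 higher and 5 lower genes in place of 25 and 2. Of all tested genes 29.8% were lower in the first comparison, and 39.8% were higher and 24.35% lower in the second. The clr-1 deletion alone gave 13 higher genes at 1 h (5 to 23 without single libraries, 35 without both 36-base ones) and the clr-2 deletion alone 19 (13 to 29, and 44). Of all tested genes, the clr-1 deletion gave 3.26% to 17.1% without single libraries and 28.2% without both 36-base ones. The clr-2 deletion gave 7.71% to 22.6% and 33.4% of them. Genes lower on Avicel than on sucrose at 1 h numbered 2 to 4 without single libraries, the 4 without Avicel replicate 3. The share of all tested genes called lower then ran from 18.6% to 24.4%. Of the differences of single genes recomputed, 691 kept direction and call, 38 lost the call, 17 gained it and 9 changed sign. The sign of eas on Avicel against sucrose at 1 h turned to -0.59 with pseudocount 10 and -2.06 without both 36-base libraries, and without single libraries it ran from -2.17 to 1.48. In that comparison ada-6 ran from -0.042 to 0.627, bli-4 from -0.365 to 0.901 and bek-1 from -0.888 to 0.099 without single libraries. bli-4 without carbon against sucrose ran from -0.863 to 0.011. Scaling to the median of gene ratios moved the median of all genes by -0.14 (Avicel against sucrose), -0.176 (no carbon against sucrose) and -0.125 (deletion strains) at 1 h, and gave 36, 39 and 22 higher genes there. Of all tested genes 31.98%, 30.36% and 20.25% were higher with that scaling. The cause of these changes was not tested. The deletion and no-carbon 1 h tests rest on single libraries and 4 residual degrees of freedom.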
